A study of Homo sapiens
Mus musculus with 3 samples.

Results

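The genes described here were 16 genes of G2 phase and mitosis, each followed in human and in mouse, so that 32 of the 60736 genes in the read tables were members (32738 of these genes were human and 27998 were mouse). They were taken from a list of Ensembl identifiers, drawn up with earlier results of these data known and with no threshold on a measured value: MKI67, TOP2A, UBE2C, BIRC5, CDK1, CCNB1, CCNB2, CCNA2, CDC20, PLK1, AURKA, CENPF, TPX2, HMGB2, PTTG1 and CKS2, with the mouse genes of the same names. All 32 had reads and all passed the filter on low counts in every comparison of their species. The libraries came from the ICELL8 cx, which places single cells in nanowells and marks the transcripts of each well with a barcode. Every library was made from a mixture, at equal parts, of the human lines Jurkat and TALL-104 (both T-cell leukemias) and the mouse lines EL4 (a T-cell lymphoma) and IVA12 (a hybridoma). The study's methods name no treatment beyond the culture media, which differed between lines and held IL-2 for TALL-104. The study also describes slow growth of TALL-104. The group 3'DE was the kit's own protocol for 3' ends (2 libraries), and the group 3'DE-UMI was a modified protocol that allows unique molecular identifiers (UMIs) to be counted (1 library). Per the study's supplement, 3'DE library 1 was made from another preparation of the cell mixture than the other libraries. Nothing says that libraries came from separate cultures. Where clusters of wells are compared below, p-values measure how the gap between clusters varied over these libraries. Where protocols are compared, they measure the spread between libraries. Either spread may be technical.

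Entry into mitosis is driven by the kinase CDK1 bound to an A-type or B-type cyclin, and CKS2 is a small subunit of that complex. The kinases PLK1 and AURKA and the spindle factor TPX2, which activates Aurora A, build the spindle, and CENPF and survivin (BIRC5) act at kinetochores and centromeres. The anaphase-promoting complex, with its activator CDC20 and its conjugating enzyme UBE2C, then marks securin (PTTG1) and the B-type cyclins for destruction. Topoisomerase II alpha (TOP2A), HMGB2 and MKI67 (the Ki-67 antigen) belong to the chromatin of dividing cells. In a growing culture only a share of cells is in these phases at any time, so the RNAs of these genes are known to vary between cells of 1 line. A sum over wells does not tell more cells in these phases apart from more RNA in each such cell.

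The 3 read tables held 35581264, 109702878 and 44883618 reads (an order kept below: the first and the second of 3'DE, then 3'DE-UMI), and 1455, 1257 and 1257 wells of a single species were used. With the members left out, the wells of each species fell into 2 clusters, numbered by size. Human cluster 1 held 406, 448 and 528 wells, human cluster 2 held 127, 36 and 29, mouse cluster 1 held 474, 498 and 470, and mouse cluster 2 held 448, 275 and 230. The tables pair no identifier with a symbol, so markers of the 4 lines could not be looked up and no cluster was named after a line. Human cluster 2 was shallow, with a median of 4507, 9509 and 5653 reads per well, where human cluster 1 had 26536, 38468 and 17797. Wells of the other species gave the background of stray reads. The human members stood there at a median of 0.488%, 1.24% and 0.218% of their level in human wells, and the mouse members at 3.25%, 2.26% and 1.17% of their level in mouse wells. Over all genes with at least 100 CPM (reads of a gene scaled to 1000000 reads of its species), the same medians were 0.407%, 1.45% and 0.338% for human genes and 2.84%, 2.42% and 1.21% for mouse genes.

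The 16 members took between 0.6% and 1% of the reads of their species in 3 of the 4 clusters, and far less in human cluster 2. In human cluster 1 the share was 0.741%, 0.817% and 0.938%. In mouse cluster 1 it was 0.641%, 0.653% and 0.733%, and in mouse cluster 2 it was 0.672%, 0.746% and 0.691%. The mouse clusters were thus close to each other, and cluster 2 was above cluster 1 in both 3'DE libraries and below it in the 3'DE-UMI library. In human cluster 2 the share was 0.0667%, 0.0146% and 0.189%, below every value of the other clusters. The protocols were not tested on this share, since the smallest p that permuting 3 libraries can give is 1 in 3.

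Human cluster 1 gave reads for all 16 members in every library. Levels are given in CPM, summed over the wells of a cluster. Because reads come from the 3' end of transcripts, they were not divided by transcript length, and the order between genes is an order of reads. Of the CDK1 complex, CCNB1 (cyclin B1) stood at 605, 342 and 669 CPM, CCNB2 at 206, 144 and 409 and CCNA2 at 115, 84.1 and 124. CDK1 itself stood at 158, 262 and 651 CPM, lowest in 3'DE library 1 and highest in the 3'DE-UMI library. The subunit CKS2 (ENSG00000123975) was at 952, 1927 and 975 CPM, highest in 3'DE library 2, with the other libraries close together. Among the chromatin genes HMGB2 (ENSG00000164104) had most reads of all members, with 1413, 2134 and 3697 CPM. TOP2A stood at 627, 503 and 807 CPM and MKI67 at 456, 405 and 269. CDC20 (ENSG00000117399) was at 326, 175 and 45.5 CPM, lowest in the 3'DE-UMI library. PLK1 had fewest reads (32.2, 15.7 and 21.7 CPM). In 3'DE library 2, 1 of the 448 wells held 41.5% of its reads, against 4.88% in 3'DE library 1 and 11.5% in 3'DE-UMI. For AURKA 1 well held 20.8% in 3'DE library 2, against 3.22% and 14.5% in the others. The other members (UBE2C, BIRC5, AURKA, CENPF, TPX2 and PTTG1) lay between 27.0 and 765 CPM.

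**Figure D1:**
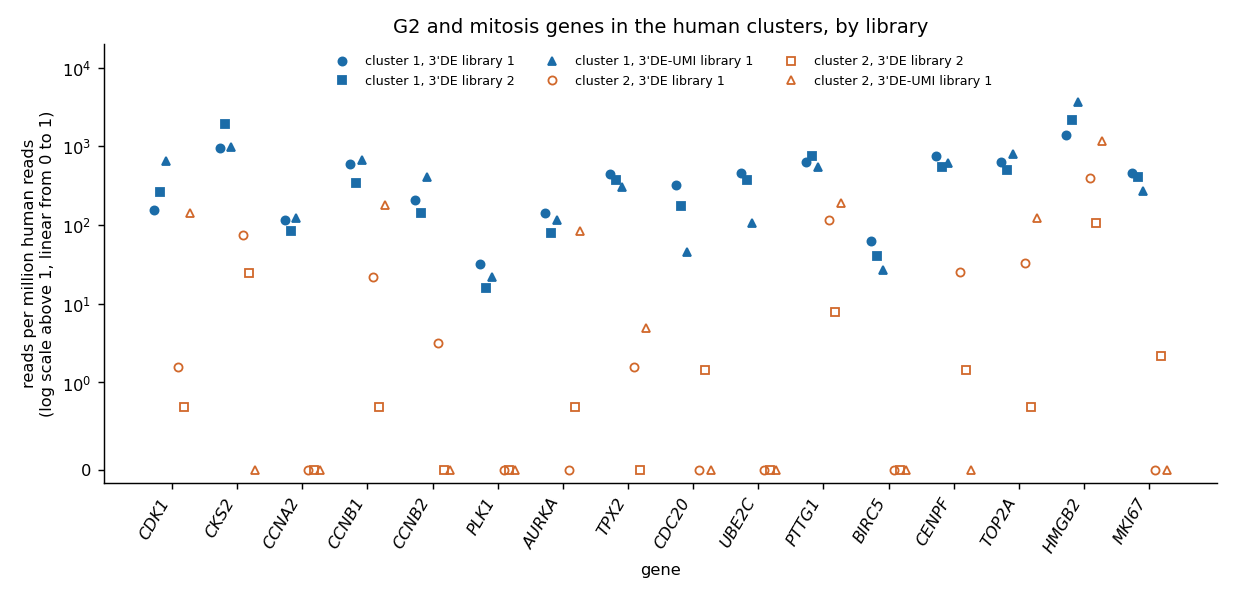
CPM of each human member (y axis, log scale above 1 and linear from 0 to 1) in human cluster 1 (filled) and human cluster 2 (open), 1 point per library, genes ordered by role. In each library every member was higher in cluster 1, and UBE2C, BIRC5, CCNA2 and PLK1 lie at 0 in cluster 2 in all 3 libraries.

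The members were nearly absent from the reads of human cluster 2. Of its 192 wells, 68 of 127, 16 of 36 and 15 of 29 had no read of any human member. UBE2C, BIRC5, CCNA2 and PLK1 had no read among the 2236455 human reads of the cluster, where a count of 0 allows up to 1.34 CPM (3 reads over the group). That limit takes reads as independent. Against it the ratio of cluster 1 over 2 was at least 245 for UBE2C, 72.3 for CCNA2, 30.2 for BIRC5 and 14.4 for PLK1. MKI67 had 3 reads, all in 1 well, against 27555 reads in cluster 1. Its ratio was 286, with a counting interval of 97.9 to 1387 (95%, exact Poisson on the reads of cluster 2). For CCNB2, CDC20 and TPX2, with 2 reads each, the ratios were 233, 189 and 416, with lower bounds of 64.6, 52.4 and 115. Reads are not independent molecules, so these intervals and limits cover counting error only.

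HMGB2 was the member with most reads in human cluster 2, at 392, 106 and 1169 CPM in 61 of the 192 wells. Even so it was 8.32-fold higher in cluster 1 over the pooled reads, the smallest pooled ratio of the 16. Pooled ratios lean to 3'DE library 2, which held 1396420 of the 2236455 human reads of cluster 2. Elsewhere the clusters stood closer: HMGB2 was at 1413 against 392 CPM in 3'DE library 1 and at 3697 against 1169 in 3'DE-UMI. PTTG1, the securin gene, came next in reads, with 115, 7.88 and 192 CPM and a pooled ratio of 12.6. In 3'DE-UMI PTTG1 was at 542 CPM in cluster 1 and CCNB1 at 669. CCNB1 stood at 22.0, 0.716 and 178 CPM, with 51 reads in only 4 wells and a ratio of 19.7. The highest of each of these values was in the 3'DE-UMI library, whose cluster 2 had 29 wells and 202780 human reads. CKS2 went the other way, with 73.8, 24.3 and 0 CPM and a pooled ratio of 43.8. Single wells weighed heavily: 1 well held 55.9% of the member reads of the cluster in 3'DE library 2, against 6.82% in 3'DE library 1 and 15.1% in 3'DE-UMI. Mouse member reads in the same wells came to 15.7, 25.1 and 355 CPM of human reads, beside 667, 146 and 1894 for the human members. The part of stray reads in the human values was not tested.

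In edgeR's quasi-likelihood test on sums per library and cluster, with the library as a block, 13 of the 16 human members were called higher in cluster 1 at an adjusted p under 0.05 and none lower. Of the 10734 human genes tested, 3.58% were called, 2.32% higher and 1.26% lower. The members with the smallest adjusted p were CKS2 (1.49e-14), CENPF (5.17e-10) and HMGB2 (5.04e-09), and those not called were BIRC5 (0.0801), PLK1 (0.167) and AURKA (0.174). AURKA was at 140, 78.3 and 117 CPM in cluster 1 and at 0, 0.716 and 83.8 CPM in cluster 2, where its reads came from 2 wells. For comparison, human genes were chosen by their level in cluster 1 alone, a choice that by itself leans them to cluster 1. How far it did so was not tested. Over the 5034 genes with at least 19.3 CPM in cluster 1 (the level of the lowest member) the median ratio was 1.92, against a median of 37.0 over the 16 members with the genes at 0 set to their limit, and 4.47% of the 5034 genes reached 37.0. All 16 members were higher in cluster 1 in each library, against 65.9%, 75.7% and 74.5% of those genes. When 1 library was left out, the count was lowest without 3'DE library 1, which held 127 of the 192 wells. Then 2 members were called, CENPF and CKS2. Without 3'DE library 2 the count was 11, and without the 3'DE-UMI library it was 14. The share of all genes called in these smaller fits is not given, so the change in the count is no result about the members.

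**Figure D2:**
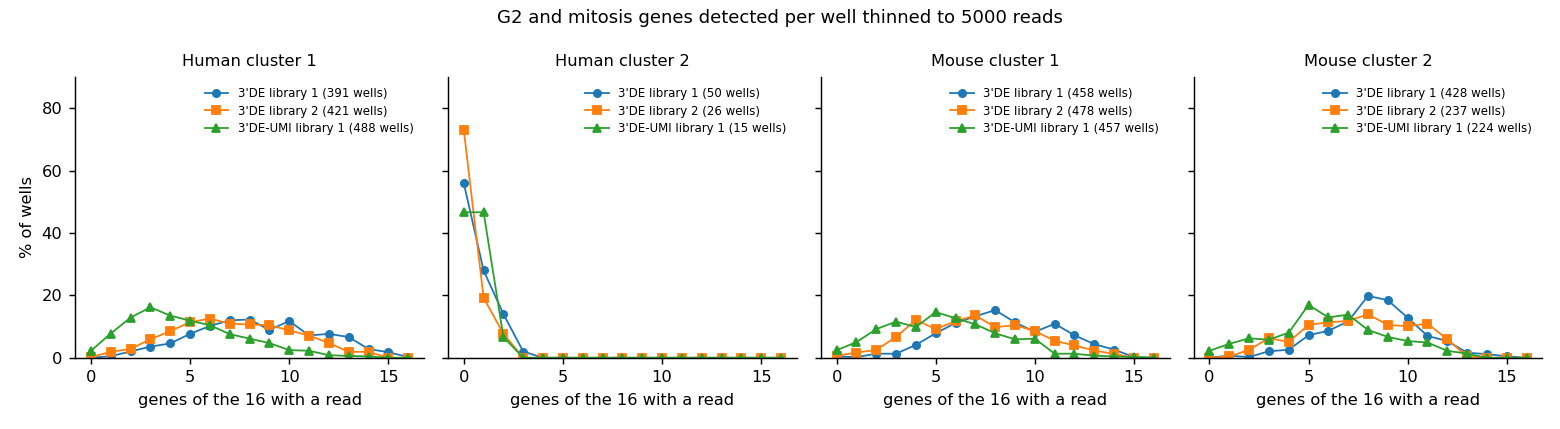
Share of wells (y axis, %) with each number of the 16 members detected (x axis), after every well was thinned to 5000 reads, 1 line per library. Human cluster 2 piles up at 0 and 1 genes in every library, and the 3'DE-UMI library lies to the left of both 3'DE libraries in the other clusters.

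Well by well, most cells of the other 3 clusters held several of these RNAs. To compare wells of different depth, each was thinned at random to 5000 reads and shallower wells were left out. A thinned well of human cluster 1 had reads of a median of 8, 7 and 4 members, with quartiles of 6 to 11, 5 to 9 and 3 to 6.25. Mouse cluster 1 had a median of 8, 7 and 5, and mouse cluster 2 one of 8, 8 and 6. In human cluster 2 the median was 0, 0 and 1 over 50, 26 and 15 wells, and no well reached more than 3. Without thinning the medians were 11, 10 and 5 in human cluster 1, 12, 10 and 6 in mouse cluster 1 and 12, 10 and 8 in mouse cluster 2. The 3'DE-UMI library thus had fewer members per well at equal reads in these 3 clusters, while the share of reads in the members was not lower there than in 3'DE library 1. Fewer genes of any kind were seen per well there: the median, not thinned, was 2836, 2708 and 859 genes in human cluster 1, 3033, 2921 and 1278 in mouse cluster 1 and 2719, 2497 and 1686 in mouse cluster 2. Whether the drop was larger for the members was not tested. Wells with none of the members were rare outside human cluster 2: at 5000 reads they were 0, 1 and 11 wells of human cluster 1, 2, 3 and 11 of mouse cluster 1 and 0, 0 and 5 of mouse cluster 2. The spread within a cluster was wide, since the share of a thinned well's reads in the members ran from 0.163% at the 5th percentile to 1.71% at the 95th in human cluster 1 of 3'DE library 1.

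HMGB2 and its mouse counterpart were among the members most often seen. At 5000 reads HMGB2 had a read in 90.5%, 91.2% and 83.8% of the wells of human cluster 1, where 3.3%, 9.0% and 2.8% of mouse wells had one. Hmgb2 had a read in 99.6%, 95.8% and 93.9% of the wells of mouse cluster 1 and in 98.4%, 94.5% and 87.5% of those of cluster 2, against 15.2%, 13.2% and 8.9% of human wells. CKS2 was seen in 87.0%, 93.8% and 55.3% of the wells of human cluster 1, more often than HMGB2 in 3'DE library 2. In the mouse wells of 3'DE library 2 its share was 22.8%, far above the 1.5% and 1.0% of the other libraries, so stray CKS2 reads were most spread there. CDC20 was seen far less often with 3'DE-UMI in human cluster 1, with 49.1%, 36.1% and 4.5% of wells and at most 1.5% of mouse wells. MKI67 was seen in 66.2%, 53.2% and 27.0% of the wells of human cluster 1 at 5000 reads. CCNB1 was seen in 58.1%, 47.3% and 36.1%. The exact 95% binomial intervals of these shares spanned at most 13.4 percentage points.

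**Figure D3:**
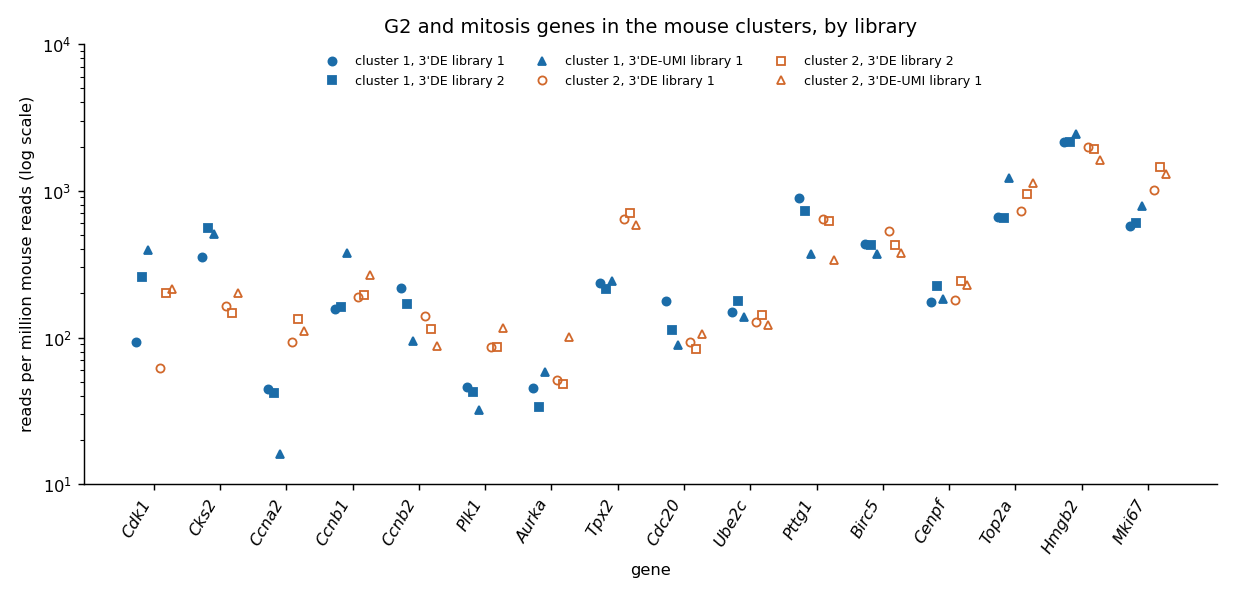
CPM of each mouse member (y axis, log scale) in mouse cluster 1 (filled) and mouse cluster 2 (open), 1 point per library, genes ordered by role. Tpx2, Mki67, Plk1 and Ccna2 lie higher in cluster 2 in every library, and Cks2 and Ccnb2 lie higher in cluster 1.

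In the mouse, the clusters differed gene by gene and not as a block. Between mouse cluster 1 and mouse cluster 2, 8 of the 16 members were called, 4 higher and 4 lower, where 38.9% of the 12094 mouse genes tested were called (19.9% higher and 19.0% lower). A share of members near that of all genes is no result about the members as a group. The median log2 difference was 0.17 over the members and -0.03 over all genes. The differences below are log2 of cluster 1 over cluster 2, with their standard errors (SE) and edgeR adjusted p.

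The CDK1 complex was divided. Cks2 (ENSMUSG00000062248) stood at 355, 555 and 508 CPM in cluster 1 and at 164, 147 and 201 CPM in cluster 2, with no overlap, and was higher by 1.69 (SE 0.22, adjusted p = 0.00033). Cdk1 stood at 92.7, 257 and 395 CPM in cluster 1 and at 61.9, 201 and 214 CPM in cluster 2. The groups overlapped, but cluster 1 was higher within each library, and the fitted difference was 0.84 (SE 0.19, adjusted p = 0.0080). Ccnb2 was at 219, 170 and 94.7 CPM in cluster 1 and at 140, 114 and 87.3 in cluster 2, a difference of 0.68 (SE 0.19, adjusted p = 0.020). Ccna2 (ENSMUSG00000027715), the A-type cyclin, went the other way: it was at 44.8, 41.7 and 16.1 CPM in cluster 1 and at 93.8, 134 and 111 in cluster 2. It was lower in cluster 1 by the widest margin of the members called lower, at -1.60 (SE 0.30, adjusted p = 0.0027). Ccnb1 was at 156, 161 and 375 CPM against 189, 194 and 265 CPM, lower in cluster 1 for both 3'DE libraries but higher for 3'DE-UMI, and its difference of 0.21 (SE 0.22, adjusted p = 0.49) was not called.

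The spindle genes that were called were lower in cluster 1. Tpx2 (ENSMUSG00000027469) stood at 236, 213 and 242 CPM in cluster 1 and at 644, 709 and 588 CPM in cluster 2, narrow ranges that lay far apart, with a difference of -1.26 (SE 0.18, adjusted p = 0.00065). At 5000 reads it had a read in 52.2%, 37.9% and 28.4% of the wells of cluster 1 and in 82.2%, 73.4% and 60.3% of those of cluster 2. Plk1, the polo-like kinase, was at 46.0, 42.6 and 31.9 CPM against 86.3, 86.3 and 116 CPM, a difference of -1.03 (SE 0.24, adjusted p = 0.0084). Mki67 was at 574, 600 and 790 CPM against 1013, 1443 and 1300 CPM, without overlap, with a difference of -0.71 (SE 0.18, adjusted p = 0.014). Aurka, the kinase that TPX2 activates, had a difference of -0.27 (SE 0.22, adjusted p = 0.37).

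Pttg1 was higher in cluster 1, at 889, 725 and 369 CPM against 637, 620 and 340, with overlap between the groups and a difference of 0.50 (SE 0.17, adjusted p = 0.039). Securin's partners in that pathway, Cdc20 and Ube2c, were not called. Cdc20 stood at 178, 112 and 89.2 CPM against 93.3, 84.1 and 106, a difference of 0.60 (SE 0.23, adjusted p = 0.068), and was lower in cluster 1 in the 3'DE-UMI library. Hmgb2 stood at 2156, 2141 and 2445 CPM against 1983, 1920 and 1620, a difference of 0.52 (SE 0.19, adjusted p = 0.053) with no overlap. Top2a, among the members with most reads, stood at 663, 649 and 1221 CPM against 723, 948 and 1136, with overlap and a difference of 0.04 (SE 0.19, adjusted p = 0.89). Ube2c, Birc5 and Cenpf lay between 0.08 and 0.46 and were not called. With library totals in place of TMM factors the median of all mouse genes moved from -0.03 to -0.26. Then 2 members were called higher and 4 lower, Pttg1 (adjusted p = 0.20) and Ccnb2 (adjusted p = 0.10) were no longer called, and of all genes 1886 were called higher and 2894 lower, where the TMM fit had 2401 and 2301. The same 2 members lost their call without 3'DE library 1 and, together with Mki67 (adjusted p = 0.11), without 3'DE library 2. Cks2, Cdk1, Ccna2, Tpx2 and Plk1 were called in each of these fits.

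**Figure D4:**
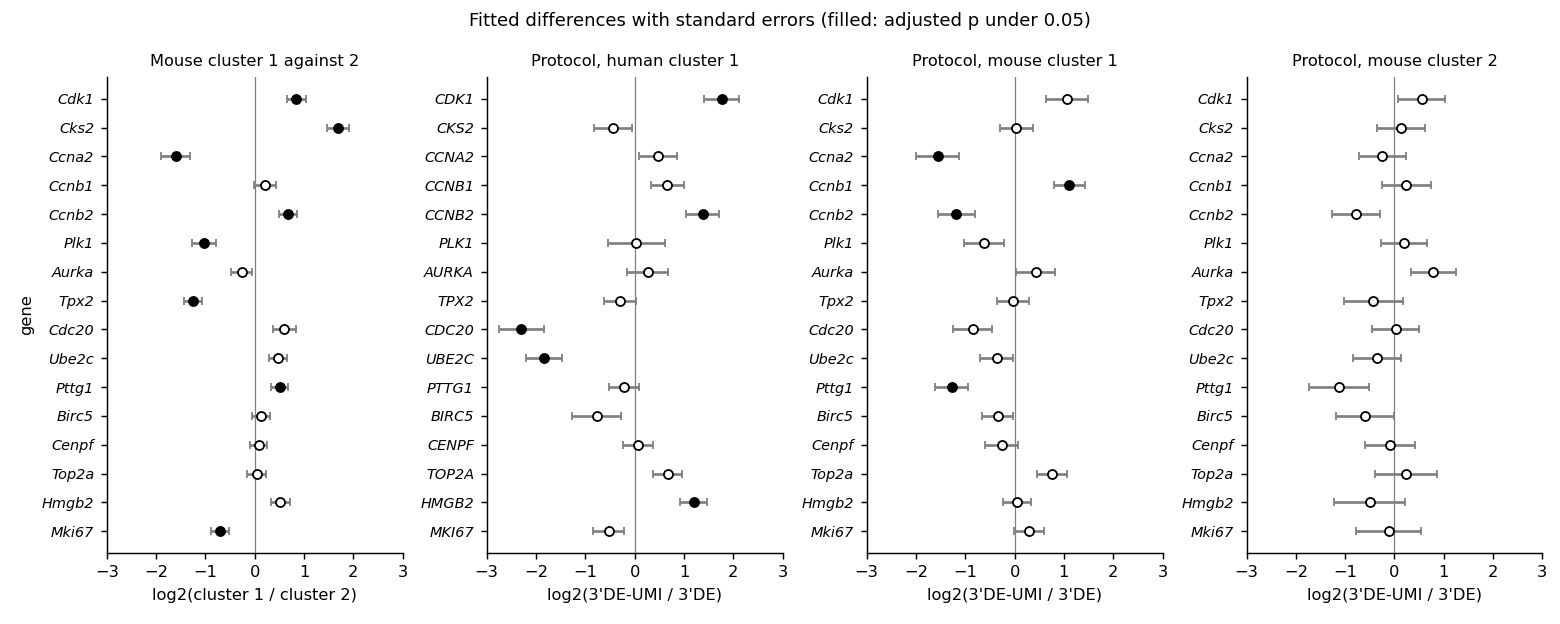
Fitted log2 differences (x axis) with standard errors of the 16 members (y axis, ordered by role), for mouse cluster 1 against 2 and for 3'DE-UMI against 3'DE in human cluster 1, mouse cluster 1 and mouse cluster 2. Filled points passed an adjusted p of 0.05: 8, 5, 4 and 0 members from left to right.

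The protocols were then compared within each cluster, with 2 libraries of 3'DE and 1 of 3'DE-UMI. The lone 3'DE-UMI library was taken to vary like the 3'DE libraries, so these p-values measure the spread between 2 libraries, and differences are log2 of 3'DE-UMI over 3'DE. In human cluster 1, 5 of the 16 members were called (3 higher and 2 lower in 3'DE-UMI), where 12.4% of 13735 human genes were called, 5.29% higher and 7.08% lower. Both genes of the anaphase-promoting complex were lower in the 3'DE-UMI library. CDC20 differed by -2.30 (SE 0.45, adjusted p = 0.0059) and UBE2C, at 465, 372 and 105 CPM, by -1.84 (SE 0.36, adjusted p = 0.0061). CDK1 was higher by 1.76 (SE 0.36, adjusted p = 0.0076), CCNB2 by 1.38 (SE 0.34, adjusted p = 0.018) and HMGB2 by 1.19 (SE 0.28, adjusted p = 0.015). On CDK1 and HMGB2 3'DE library 2 was itself above 3'DE library 1, and 3'DE-UMI lay above both. Against 3'DE library 2 alone, which came from the same cell mixture, the differences were 1.36 for CDK1, 0.84 for HMGB2, 1.55 for CCNB2, -1.90 for CDC20 and -1.77 for UBE2C, with no test. MKI67 (-0.53, SE 0.32, adjusted p = 0.30) and CCNB1 (0.66, SE 0.34, adjusted p = 0.22) were not called, and the 11 members without a call lay between -0.77 (BIRC5) and 0.67 (TOP2A). With UMI counts in place of reads for 3'DE-UMI, UBE2C (-2.36, adjusted p = 0.0082) and CDC20 (-2.72, adjusted p = 0.016) were called, CDK1 (1.25, adjusted p = 0.11), CCNB2 (0.69, adjusted p = 0.34) and HMGB2 (0.90, adjusted p = 0.13) were not, and BIRC5 turned to 1.46 (adjusted p = 0.082).

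In mouse cluster 1, 4 members were called, 1 higher and 3 lower, where 11.2% of 11795 mouse genes were called, 4.10% higher and 7.13% lower. Ccnb1 was the member that was higher with 3'DE-UMI, by 1.11 (SE 0.32, adjusted p = 0.034). Pttg1 was lower, at -1.27 (SE 0.34, adjusted p = 0.025), as were Ccna2 at -1.56 (SE 0.44, adjusted p = 0.031) and Ccnb2 at -1.18 (SE 0.37, adjusted p = 0.049). Against 3'DE library 2 alone these values were 1.12, -1.08, -1.47 and -0.94, so each kept its direction within the cell mixture. The members without a call lay between -0.85 (Cdc20) and 1.06 (Cdk1). With UMI counts Pttg1 alone was called (-1.43, adjusted p = 0.043), and Ccnb1 (0.60), Ccnb2 (-1.19) and Ccna2 (-0.45) were not. In mouse cluster 2 none of the 16 members was called in edgeR, none had an unadjusted p under 0.05, and DESeq2 called none (1 unadjusted). There 2.31% of 11644 genes were called, 83 higher and 186 lower, and this split was 103 and 148 without TMM factors and 28 and 258 in DESeq2. The members lay between -1.12 (Pttg1) and 0.79 (Aurka). Standard errors were wider in that cluster, 0.46 to 0.72, and Pttg1 (SE 0.61, adjusted p = 0.37) and Ccnb2 (-0.79, SE 0.49, adjusted p = 0.44) had values like those of cluster 1. An interaction term asked if the gap between the mouse clusters changed with the protocol. No member was called (2.04% of 13253 genes were), 3 had an unadjusted p under 0.05, and DESeq2 called none, with 2 unadjusted. The interaction was widest for Ccna2 at -1.30 (SE 0.45, adjusted p = 0.11), followed by Ccnb1 at 0.87 (SE 0.38, adjusted p = 0.26) and Cdc20 at -0.83 (SE 0.41, adjusted p = 0.37). That of Ccna2 turned to 0.084 with UMI counts for 3'DE-UMI.

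UMIs of the 3'DE-UMI library gave a second count of the same wells, made by the authors with other software. The members took 0.756% of the UMIs of human cluster 1, 0.165% of human cluster 2, 0.747% of mouse cluster 1 and 0.647% of mouse cluster 2. For most members reads and UMIs stood in a similar ratio: 14 of the 16 human members had 13.2 to 21.9 reads per UMI in human cluster 1, where the median gene with at least 20 UMIs had 15.8. BIRC5 and PLK1 were apart. BIRC5 had 410 reads and 142 UMIs (2.89 reads per UMI), so it stood at 27.0 CPM by reads and at 130 CPM by UMIs. It had a UMI in 20.1% of the wells of human cluster 1 but a read in 8.52%. Some wells thus had a UMI of BIRC5 and no read of it, and 2.89 is not a number of reads per molecule. PLK1 had 330 reads and 49 UMIs (6.73 reads per UMI). In the mouse, Hmgb2 had 8.25 and 8.18 reads per UMI in clusters 1 and 2, below the median gene's 13.4 and 12.8. Ccna2 had 5.62 reads per UMI in cluster 1 and 13.3 in cluster 2, from 52 and 85 UMIs. With UMIs in place of reads for this library, the protocol difference of Ccna2 in mouse cluster 1 was -0.45 and was not called, and its difference between mouse clusters was -1.13 and was called.

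**Figure D5:**
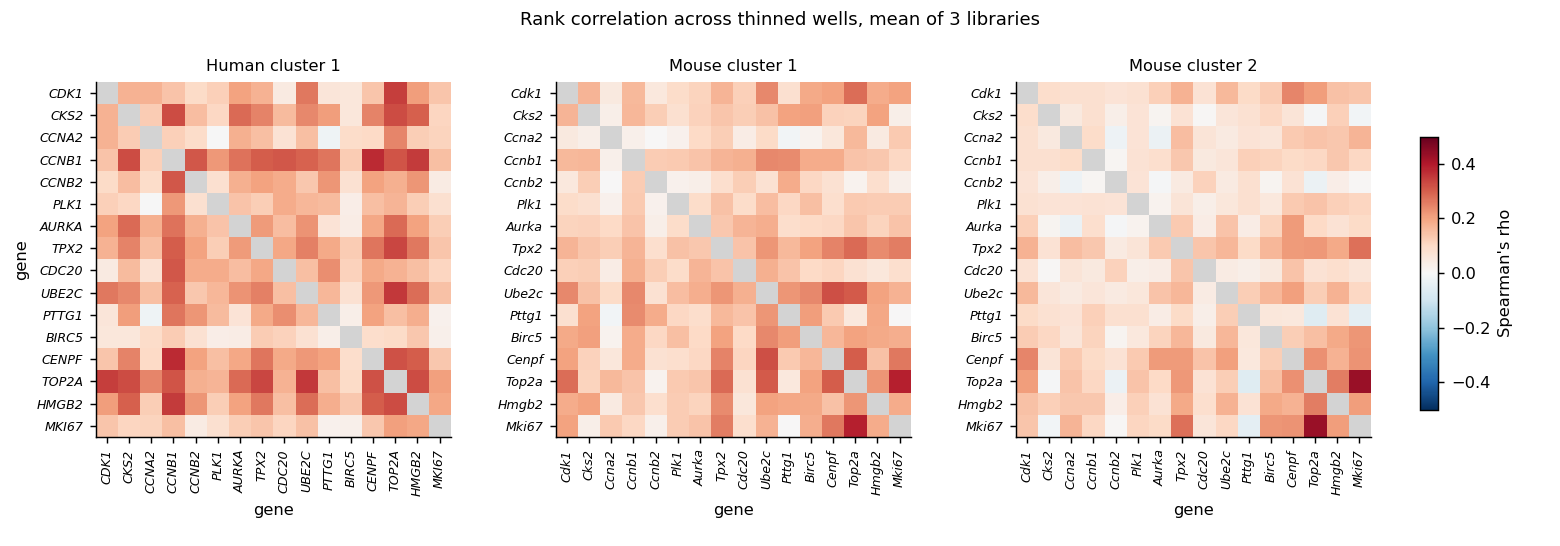
Spearman's rho (colour) between every pair of members across wells thinned to 5000 reads, averaged over the 3 libraries, for human cluster 1, mouse cluster 1 and mouse cluster 2. Most pairs are above 0, and TOP2A, CCNB1 and HMGB2 form the strongest rows in human cluster 1, Mki67 and Top2a the strongest pair in both mouse clusters.

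Within a cluster the members tended, weakly, to go up and down together from well to well. Across thinned wells, the median Spearman's rho over the 120 pairs of members was 0.212, 0.171 and 0.126 in human cluster 1 (391, 421 and 488 wells), 0.137, 0.145 and 0.138 in mouse cluster 1 (458, 478 and 457 wells) and 0.0773, 0.0997 and 0.111 in mouse cluster 2 (428, 237 and 224 wells). Between members and other genes of at least 10% detection the median lay between 0.003 and 0.045. The 95th percentile over those pairs was 0.108, 0.107 and 0.132 in human cluster 1 and 0.0924, 0.108 and 0.131 in mouse cluster 1. In mouse cluster 2 it was 0.0935, 0.134 and 0.153, above the members' median in each library. In human cluster 1 it was above the members' median for 3'DE-UMI only. The number of pairs above 0 was between 105 and 119 of 120 in every library and cluster. Of the pairs of a member and another gene, 52.2% to 60.9% were above 0 in the 3'DE libraries and 67.9% to 80.7% with 3'DE-UMI. Wells share their library and their depth of 5000 reads, the counts are sparse, and these values are a description with no test.

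Ranked by their lowest rho over the 3 libraries, the leading pairs were as follows. In human cluster 1, CCNB1 and HMGB2 had a rho of 0.342 to 0.355 over the 3 libraries, TOP2A and CDK1 one of 0.319 to 0.367, and CCNB1 and CCNB2 one of 0.279 to 0.337. In the mouse the highest pair was Mki67 and Top2a in both clusters, at 0.348 to 0.439 in cluster 1 and 0.366 to 0.473 in cluster 2. Ube2c and Cenpf followed in cluster 1 (0.298 to 0.358) and Top2a and Hmgb2 in cluster 2 (0.244 to 0.266). The same pair of human genes, MKI67 and TOP2A, had a rho of 0.140 to 0.280 in human cluster 1, where MKI67 had a mean rho with the other members of 0.113, 0.137 and 0.0946. TOP2A had 0.305, 0.265 and 0.194 there and CCNB1 had 0.321, 0.273 and 0.180, the highest of the 16 in the 3'DE libraries. At the low end, BIRC5 had 0.103, 0.0909 and 0.0404 in human cluster 1. The pair ranked last was Ccna2 and Cks2 in mouse cluster 1 (-0.0929 to 0.141) and Top2a and Cks2 in mouse cluster 2 (-0.107 to 0.0706). Ccna2 and Pttg1 in mouse cluster 1 ran from -0.0644 to 0.0421, and Top2a and Ccnb2 in mouse cluster 2 from -0.0856 to 0.0167. In mouse cluster 2, Pttg1 was below 0 in every library with Top2a (-0.0690 to -0.0541) and with Mki67 (-0.0532 to -0.0453).

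In human cluster 1, wells with a read of a member also held more of the other members on average. In human cluster 1 of 3'DE library 1, wells with a read of TOP2A at 5000 reads had reads of 8.74 other members on average, and wells without one had 6.14. For BIRC5 the means were 9.71 and 7.89, over 73 and 318 wells. In mouse cluster 2 of 3'DE library 1 the means for Ccnb2 hardly differed, at 7.86 and 7.86. Genes outside the members were not counted in this way, so whether other genes would give the same was not tested. PTTG1 has near-identical intronless copies in the human genome, and how reads shared with such copies were counted is not given in the sources used here.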

How the data were processed

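Single wells of an ICELL8 chip had been sequenced from the 3' end. Per the labels and the methods, the authors aligned reads with STAR (2.7.0b inside mappa for the reads, 2.4.2a with the Drop-seq tools for the UMIs) to a combined hg19 and mm10 reference, and deposited raw counts per gene and well. The read counts of all 3 libraries were used here, and the UMI counts of the 3'DE-UMI library as a second measure. Whether the tables were made after the downsampling that the methods describe is not known.

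Wells with at least 1000 reads and 200 genes were kept, and wells with at least 10% of reads from the other species were removed as mixed. No doublet caller was run, so doublets within a species remain. Wells were clustered with scanpy 1.11.5 (1000 variable genes, 20 components, 15 neighbours, the lowest Leiden resolution giving 2 clusters per species) without the members. For all other genes, clustering and testing used separate sets of genes in turn. Reads were summed per library and cluster. Sums were then tested with edgeR 4.0.16 (TMM factors, low counts removed by filterByExpr, two-sided quasi-likelihood F-test) over all genes of the species, with Benjamini-Hochberg adjustment and a threshold of 0.05, and again in DESeq2 1.42.0. Cluster comparisons had the library as a block, since both clusters of a library came from the same chip. The fits were also run on counts simulated from the fitted models, which share the models' assumptions and so cannot test them.

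The members and lists were chosen with earlier results of these data known. Values are given for members called (the 8 with the widest differences where more than 10 were called), the 3 members of each cluster with most reads, and MKI67, CCNB1, CDC20 and HMGB2. Wider lists of G2 and DNA replication genes and markers of the lines could not be matched to identifiers, and no sequence was printed. Alternatives were another count model, no filter on low counts, a well minimum of 5000 reads, a mixed limit of 5%, UMI counts, equal numbers of wells, leaving out each library, no block, and, added after the data were seen, library totals without TMM factors. Wells were thinned to 5000 reads (or 2000 reads, or 500 UMIs). Read totals ran from 35581264 to 109702878, and a larger total did not make each value more precise. In 3'DE library 2, with most reads, 1 well held 55.9% of the member reads of human cluster 2.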

Additional observations from a re-analysis of the deposited data

Results flagged for a closer look

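For CCNB2, CCNA2, HMGB2 and MKI67 the protocol difference (log2 of 3'DE-UMI over 3'DE) went one way in human cluster 1 and the other way in a mouse cluster, in the fits against each 3'DE library taken alone. The human and mouse genes were not tested against each other. CCNB2 (cyclin B2) stood at 1.38 in human cluster 1, and Ccnb2 at -1.18 in mouse cluster 1 and -0.79 in mouse cluster 2. CCNA2 (cyclin A2) stood at 0.48 in human cluster 1, and Ccna2 at -1.56 in mouse cluster 1 and -0.24 in mouse cluster 2, where its CPM with 3'DE-UMI (111) lay between those of the 3'DE libraries (93.8 and 134). HMGB2 stood at 1.19 in human cluster 1 and Hmgb2 at -0.50 in mouse cluster 2. The proliferation marker MKI67 stood at -0.53 in human cluster 1 and Mki67 at 0.29 in mouse cluster 1. Of these values those of CCNB2, HMGB2 and, in mouse cluster 1, Ccnb2 and Ccna2 passed an adjusted p of 0.05 in edgeR.

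For 3'DE-UMI, 1543 barcodes stood in the UMI table but not in the read table. These carried 92828 UMIs, of which 754 were of members, above the 3 UMIs that a count of 0 allows. The share of members was 0.812% there and 0.720% over the whole UMI table. These barcodes entered no comparison.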

How the results depend on the processing

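All 13 human members called between clusters kept their direction under every alternative, and the count ran from 2 to 14 when 1 library was left out, lowest without 3'DE library 1. The count of mouse members called between clusters ran from 5 to 9 when 1 library was left out and was 4 with no replicate block, where the unpaired fit no longer removes the differences between libraries. Counts under the other alternatives stayed within 1.5 times of 8 and 13. With UMI counts in place of reads, 1 member was called between protocols in mouse cluster 1 and 2 in human cluster 1. No member was called in mouse cluster 2, or for the interaction, under any alternative. Ccnb1, not called, changed direction between mouse clusters: -0.018 without TMM factors, and -0.060 to 0.39 when 1 library was left out. So did Top2a, also not called: -0.19 without TMM factors, and -0.12 to 0.20 when 1 library was left out. The protocol difference of BIRC5 in human cluster 1, not called, was 1.46 with UMI counts. The interaction of Ccna2 was 0.084 with UMI counts. The cause of these changes was not tested. The counts of members called under the alternatives stand here without the share of all genes called. They are thus no result about the members as a group.

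No paired test of the protocols was possible, since there was 1 library of 3'DE-UMI, which allows 1 pair at most. Between protocols, leaving out a 3'DE library gave a value with no test.

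Averaged over wells instead of summed, the members' share of reads was 0.614% and 0.661% in mouse clusters 1 and 2 of 3'DE library 2, and 0.834% and 0.722% in human cluster 1 and mouse cluster 1 of 3'DE-UMI. By UMIs it was 0.756% and 0.747% in the latter pair. Thinned to 2000 reads, the median number of members per well was 6, 5 and 3 in human cluster 1, then 5, 5 and 4 for the first mouse cluster and 6, 5 and 5 for the second, with 0 in human cluster 2 of 3'DE-UMI. Not thinned, these medians were 11, 10 and 5, then 12, 10 and 6, then 12, 10 and 8, with 1 and 0 in human cluster 2 of 3'DE library 2 and 3'DE-UMI. At 500 UMIs they were 2, 2 and 2 in these 3 clusters and 0 in human cluster 2. Depth limits human cluster 2 most, with 192 wells in all.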
